A study of Mus musculus with 15 samples.

Results

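Lysosome and autophagy genes were followed in the livers of mice on a high-fat diet as a set of 40 genes, chosen by name from the 26264 genes of the count table. They comprise 32 lysosomal genes (17 hydrolases, 3 luminal activators and carriers, 7 membrane proteins, 4 proton pump subunits and the transcription factor Tfeb) and 8 autophagy factors. All 40 were among the 13189 genes with enough counts to be tested. The series describes liver RNA from a high-fat diet model of fatty liver disease in which mice received resmetirom, which activates the beta form of the thyroid hormone receptor, or the antisense agent Gc337 against the kinase STK25. Its 15 libraries of polyadenylated liver RNA fall by label into 5 groups of 3. SD-NS is the group without the high-fat diet label. HFD-NS, HFD-337, HFD-338 and HFD-Res all carry that label, so the diet is shared by every group compared with HFD-NS. The labels do not spell out SD, NS or 338, HFD-337 is read as the Gc337 group and HFD-Res as the resmetirom group from the series text, and the strain, age, doses and treatment times are not given in the sources used here. The labels do not say whether the libraries of a group came from separate animals, so the p-values below measure only the spread between these libraries.

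Lysosomes are acidic organelles in which hydrolases break down proteins, glycans and lipids, and a proton pump in their membrane keeps the lumen acidic. Autophagy delivers cell contents to them in vesicles whose membranes carry lipid-linked proteins of the LC3 and GABARAP family, built by ATG enzymes. TFEB, a transcription factor, binds a short palindrome in the promoters of many lysosomal and autophagy genes, and in the liver both systems take part in the breakdown of stored lipid, glycogen and worn-out organelles.

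Total counts ran from 3873903 to 9797743 per library. Levels are CPM, counts relative to the library's total scaled by TMM normalisation, in the order of the replicate numbers in the labels (6, 7 and 8 in SD-NS, 12, 13 and 16 in HFD-NS, 23, 26 and 27 in HFD-337, 17, 18 and 19 in HFD-338, and 29, 30 and 34 in HFD-Res), and values after ± are SDs (n = 3). Genes were called with edgeR's quasi-likelihood test at a Benjamini-Hochberg adjusted p under 0.05 over all genes tested, and rose, fell, higher and lower calls below refer to it. Stk25, the targeted kinase, lay at 20.6 to 22.00 CPM in HFD-338 and 14.6 to 19.1 CPM in HFD-337, against 47.8 to 53.3, 43.7 to 48.6 and 37.7 to 46.9 CPM in SD-NS, HFD-NS and HFD-Res. Liver tissue holds several cell types, and in bulk RNA fewer cells of a type and less RNA per cell cannot be told apart.

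In HFD-337 and HFD-Res more lysosomal genes were called as falls than as rises against HFD-NS. In HFD-338 more were called as rises than as falls, although 17 of the 32 had a log2 fold change below 0. The shares of all genes called are given with each comparison below. The autophagy factors called in any of these groups had all fallen. The summed level of the 32 lysosomal genes was 5887 to 6024 CPM in SD-NS, 5514 to 5863 in HFD-NS, 5716 to 6310 in HFD-338, 4328 to 4796 in HFD-337 and 4591 to 4936 in HFD-Res. The libraries of HFD-337 and HFD-Res lay below all others, without overlap. The 8 autophagy factors summed to 1391 to 1495 CPM in SD-NS and 1478 to 1600 in HFD-NS, against 1170 to 1225 in HFD-338, 1173 to 1288 in HFD-337 and 1049 to 1239 in HFD-Res. All 9 libraries of these 3 groups were below every SD-NS and HFD-NS library. The 3 comparisons with HFD-NS share its libraries, so their falls are not independent of each other. HFD-NS against SD-NS uses the same HFD-NS libraries with the opposite sign. A rise there and a fall in HFD-337, HFD-338 or HFD-Res are therefore not independent either.

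**Figure D1:**
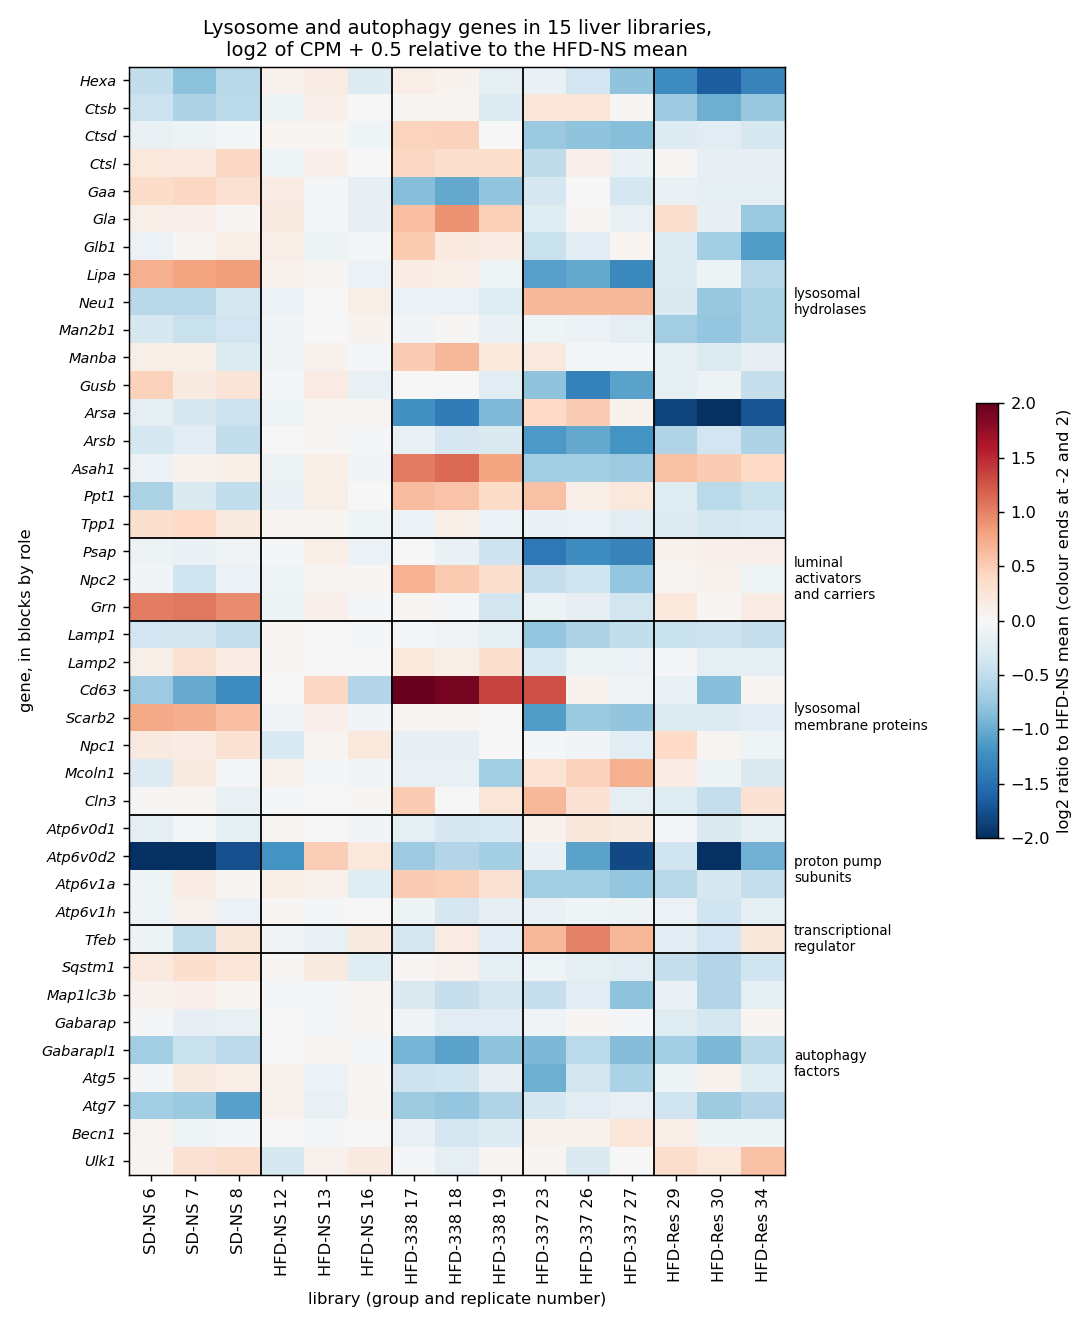
Level of each of the 40 genes (rows, in blocks by role) in each of the 15 libraries (columns), as log2 of CPM plus 0.5 minus the log2 of the HFD-NS mean treated the same way, red above and blue below. The HFD-337 columns are blue for Psap, Lipa, Arsb and Scarb2 and red for Neu1 and Tfeb, the HFD-Res columns are dark blue for Arsa and Hexa, and the HFD-338 columns are red for Cd63 and Asah1.

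HFD-NS was compared with SD-NS for the difference that goes with the diet label. Of the 32 lysosomal genes, 8 rose and 5 fell, and of the 8 autophagy factors 2 rose and 0 fell. Of all genes tested, 28.1% were called, 12% with a rise and 16.1% with a fall. The median log2 fold change was 0.04 for the lysosomal genes and -0.03 for the autophagy factors, beside -0.02 for all genes. The 5 lysosomal falls were 3 when either replicate 7 of SD-NS or replicate 16 of HFD-NS was left out, and without replicate 13 of HFD-NS 1 autophagy factor, Sqstm1, was called as a fall.

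HFD-337, HFD-338 and also HFD-Res were each compared with HFD-NS for the difference that goes with the label. They are called the treated groups below, although the labels do not say what 338 stands for. In HFD-337, 11 lysosomal genes fell and 4 rose, and 3 autophagy factors fell and 0 rose. There 47.2% of all genes were called, 22.8% with a fall and 24.4% with a rise. The medians were -0.16 for the lysosomal genes and -0.20 for the autophagy factors, beside 0.03 for all genes. Recomputed TPM, which is relative to gene length and carries no TMM scaling, gave 18 lysosomal falls and 2 rises. In HFD-338, 9 lysosomal genes rose and 3 fell, and 5 autophagy factors fell and 0 rose. There 36.8% of all genes were called, 18.9% with a rise and 17.9% with a fall. The autophagy median was -0.29, and the lysosomal median of -0.04, beside 0.00 for all genes, changed sign to 0.09 with recomputed TPM. The 9 lysosomal rises numbered 6 to 9 when any 1 library was left out. The 5 autophagy falls were 2 without HFD-NS replicate 16 or HFD-338 replicate 18 and 3 without HFD-NS replicate 12. In HFD-Res, 11 lysosomal genes fell and 1 rose, and 3 autophagy factors fell and 0 rose. There 13% of all genes were called, 6.74% with a fall and 6.22% with a rise. The medians were -0.24 and -0.23, beside 0.01 for all genes. Without HFD-Res replicate 34, calls over all genes went from 1709 to 1134. The 11 lysosomal falls dropped to between 8 and 10 when any 1 library was left out. Ulk1 was called as a rise without replicate 16 of HFD-NS.

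HFD-337 was also compared directly with HFD-338, the other group with low Stk25. Of the lysosomal genes, 17 were lower in HFD-337 and 6 higher, and of the autophagy factors 1 was lower and 2 were higher. Of all genes, 58.4% were called, 29.6% lower and 28.8% higher. The medians were -0.41 for the lysosomal genes and 0.05 for the autophagy factors, beside 0.00 for all genes, and the autophagy median changed sign to -0.22 with recomputed TPM. The 1 lower factor, Atg5, was not called when any 1 of HFD-338 replicates 17, 18 and 19 or HFD-337 replicates 23 and 27 was left out.

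**Figure D2:**
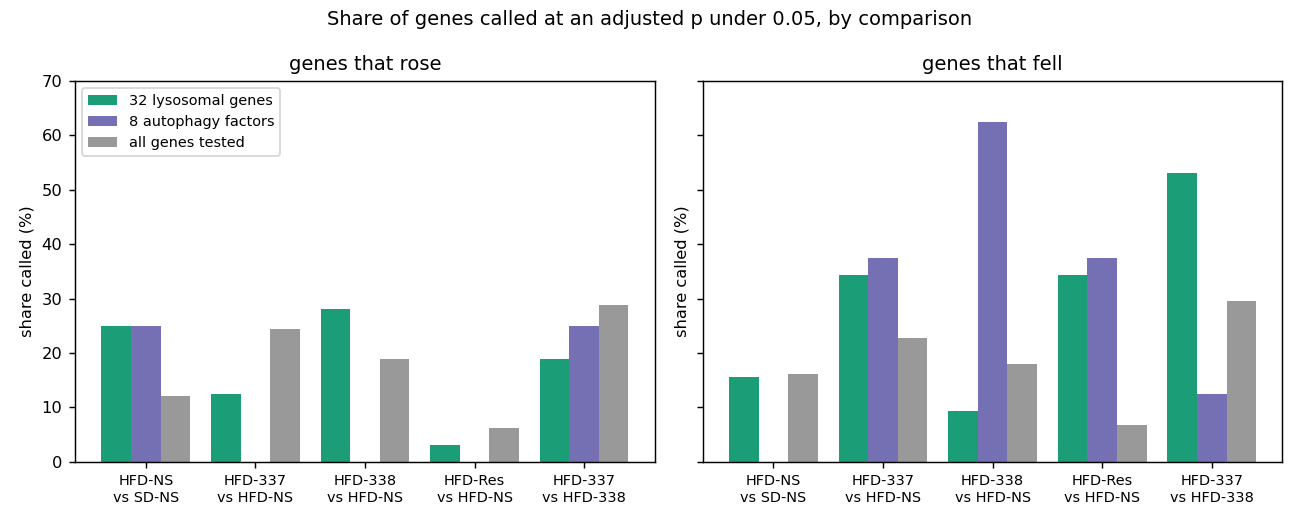
Share of genes (vertical axis, percent) that rose (left) or fell (right) at an adjusted p under 0.05 in each of the 5 comparisons, for the 32 lysosomal genes, the 8 autophagy factors and all genes tested. In HFD-Res the lysosomal bar for falls stands at 34.4% beside 6.74% of all genes, and in HFD-338 the autophagy bar for falls stands at 62.5% beside 17.9%.

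Of the 17 hydrolases, 6 rose and 3 fell in HFD-NS against SD-NS. The shares of all genes tested were 12% and 16.1% there. Against HFD-NS, 9 hydrolases (52.9%) fell and 1 rose in HFD-Res, where 6.74% of all genes fell and 6.22% rose. In HFD-337, 6 (35.3%) fell and 2 rose, beside 22.8% and 24.4% of all genes. In HFD-338, 2 fell and 6 (35.3%) rose, beside 17.9% and 18.9%. Arsa and Hexa, which act on glycolipids, had the deepest falls called among the 40 genes in HFD-Res. Arsa, the sulfatase that clears sulfatide (chromosome 15, 89356679 to 89361627 in mm39), was read at 55.2, 59.7 and 60.8 CPM in HFD-NS and 15.8, 11.3 and 17.4 in HFD-Res. In HFD-338 it stood at 24.97, 21.9 and 31.5 CPM, in HFD-337 at 76.99, 83.2 and 61.5 and in SD-NS at 51.5, 47.05 and 43.3. Every HFD-Res library lay below every library of the other groups, with the HFD-338 libraries next. Arsa fell in HFD-Res (log2 fold change -1.96 with an SE of 0.158, adjusted p = 7.68e-08) and also in the HFD-338 libraries (log2 fold change -1.17 with an SE of 0.144, adjusted p = 7.64e-06), and its difference in HFD-337 did not pass the test (log2 fold change 0.34 with an SE of 0.138, adjusted p = 0.0511). The HFD-337 libraries were all above HFD-NS in Arsa, and that difference was called as a rise when only these 2 groups were fitted, with limma-voom and without HFD-337 replicate 27. HFD-337 was above HFD-338 (log2 fold change 1.51 with an SE of 0.145, adjusted p = 1.59e-07). Of the exon length of Arsa, 5.59% overlaps another gene, C230037L18Rik, and reads there count for both. C230037L18Rik fell with Arsa in HFD-Res, from a mean of 2.502 to 0.202 CPM (adjusted p = 0.000847), and the part of shared reads was not tested.

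Hexa encodes the alpha subunit of beta-hexosaminidase, which trims gangliosides. It measured 45.7, 36.4 and 43.6 CPM in SD-NS against 68.2, 70.9 and 53.7 in HFD-NS, a rise without overlap (log2 fold change 0.61 with an SE of 0.157, adjusted p = 0.0078). In HFD-Res it measured 26.98, 20.2 and 25.1 CPM, below all SD-NS libraries as well, and it fell against HFD-NS (log2 fold change -1.41 with an SE of 0.165, adjusted p = 1.33e-05). The HFD-337 libraries were widely spread, at 58.7, 49.1 and 36.5 CPM, and overlapped HFD-NS. The call of a fall there (log2 fold change -0.41, adjusted p = 0.0357) was lost in 5 of 12 alternatives (6 other settings and each of the 6 libraries left out). In HFD-338 the level was 70.6, 67.2 and 56.3 CPM, and no difference passed (log2 fold change 0.01, adjusted p = 0.962).

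Neu1, Man2b1 and Arsb, which also fell in HFD-Res, were higher in HFD-NS than in SD-NS, with the same HFD-NS libraries in both comparisons. Neu1, the sialidase, was at 21.03, 21.2 and 24.5 CPM in SD-NS, 28.7, 31.04 and 33.8 in HFD-NS and 25.5, 18.2 and 19.9 in HFD-Res. It rose in HFD-NS (log2 fold change 0.50, adjusted p = 0.00462) and fell in HFD-Res (log2 fold change -0.56, adjusted p = 0.00338). In HFD-337 it reached 49.03, 49.5 and 49.1 CPM, the highest level of any group and without overlap (log2 fold change 0.66 with an SE of 0.112, adjusted p = 0.000103), while HFD-338 stayed at 28.9, 28.6 and 26.2 (log2 fold change -0.16, adjusted p = 0.278). Man2b1, an alpha-mannosidase, averaged 74.2 ± 3.24 CPM in SD-NS, 96.6 ± 4.49 in HFD-NS and 59.4 ± 2.67 in HFD-Res, with a rise of 0.38 and a fall of -0.70 on the log2 scale. Arsb, which removes sulfate from dermatan sulfate, was at 26.9, 29.6 and 24.2 CPM in SD-NS against 34.6, 34.8 and 33.5 in HFD-NS (log2 fold change 0.34, adjusted p = 0.0238). That rise was lost in 4 of 12 alternatives. It was at 22.5, 26.2 and 22.1 CPM in HFD-Res (log2 fold change -0.54, adjusted p = 0.00212) and at 15.2, 16.6 and 14.6 in HFD-337, below every other library of the series (log2 fold change -1.14 with an SE of 0.113, adjusted p = 3.09e-07). Arsb did not pass in HFD-338 (log2 fold change -0.26, adjusted p = 0.0619), but was called lower there when only these 2 groups were fitted and with limma-voom.

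Other glycosidases moved in fewer groups. Gusb, the beta-glucuronidase, was read at 26.2, 29.8 and 23.9 CPM in HFD-NS and 14.96, 10.1 and 12.4 in HFD-337. The HFD-337 libraries lay below all others (log2 fold change -1.11 with an SE of 0.15, adjusted p = 8.82e-06), and SD-NS, HFD-338 and HFD-Res were not called against HFD-NS. Gaa, the acid glucosidase that degrades glycogen, stood at 59.4, 52.02 and 47.3 CPM in HFD-NS and 29.1, 25.7 and 30.5 in HFD-338, a fall without overlap (log2 fold change -0.90 with an SE of 0.112, adjusted p = 8.14e-06). Gaa in SD-NS was 68.3, 70.96 and 65.8 CPM, so HFD-NS was lower (log2 fold change -0.37, adjusted p = 0.0165), a call that was lost in 5 of 12 alternatives. HFD-337 exceeded HFD-338 (log2 fold change 0.69, adjusted p = 5.56e-05). Gla, the alpha-galactosidase, was among the lowest members, at 5.96, 5.09 and 4.64 CPM in HFD-NS and 8.21, 10.1 and 7.46 in HFD-338. It rose there (log2 fold change 0.72 with an SE of 0.225, adjusted p = 0.0172), but the call was lost without HFD-NS replicate 16 or HFD-338 replicate 18. Glb1, the beta-galactosidase, was at 9.69, 8.20 and 8.54 CPM in HFD-NS and 7.28, 5.29 and 3.78 in HFD-Res (log2 fold change -0.73, adjusted p = 0.0362), and this fall was lost in 6 of 12 alternatives. Of its exon length, 10.1% overlaps Tmppe and Gm30254. Tmppe fell there too (log2 fold change -0.81, adjusted p = 0.0287), and the part of shared reads was not tested. Manba, the beta-mannosidase, rose in HFD-338 from 18.5 ± 1.08 to 25.8 ± 4.08 CPM (log2 fold change 0.48, adjusted p = 0.00683).

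The lipid hydrolases took different courses. Lipa, the lysosomal acid lipase that splits cholesteryl esters and triglycerides, had 453, 478.5 and 494 CPM in SD-NS against 295, 281 and 255 in HFD-NS, a fall without overlap (log2 fold change -0.78 with an SE of 0.113, adjusted p = 6.31e-05). HFD-337 went lower again, to 129.8, 136 and 113 CPM (log2 fold change -1.13 with an SE of 0.115, adjusted p = 3.94e-07). HFD-338 was at 306, 304 and 261 CPM, overlapping HFD-NS (log2 fold change 0.07, adjusted p = 0.677), and HFD-Res at 232, 258 and 189 (log2 fold change -0.29, adjusted p = 0.102), where a fall was called only without HFD-Res replicate 30. Lipa thus ran from 475 ± 20.6 CPM in SD-NS to 126 ± 11.97 in HFD-337, and HFD-337 was lower than HFD-338 (log2 fold change -1.20 with an SE of 0.115, adjusted p = 1.48e-07). Asah1, the acid ceramidase, was at 39.4, 46.4 and 40.8 CPM in HFD-NS and 38.9, 44.5 and 45.8 in SD-NS. It rose in HFD-338 to 87.7, 93.5 and 73.3 CPM (log2 fold change 1.01 with an SE of 0.103, adjusted p = 1.04e-06) and in HFD-Res to 63.6, 60.03 and 55.9 CPM (log2 fold change 0.50 with an SE of 0.106, adjusted p = 0.00285). It fell in HFD-337 to 25.99, 26.2 and 25.2 CPM (log2 fold change -0.71 with an SE of 0.111, adjusted p = 4.01e-05), and none of the 4 high-fat diet groups overlapped another. Its difference between HFD-337 and HFD-338 had the largest absolute fold among the 40 genes in that comparison (log2 fold change -1.72 with an SE of 0.11, adjusted p = 2.38e-09). Ppt1, which removes palmitate from proteins, stood at 32.1, 41.2 and 35.7 CPM in SD-NS, 45.9, 54.5 and 50.3 in HFD-NS and 77.6, 75.1 and 65.2 in HFD-338, with rises in HFD-NS (log2 fold change 0.47, adjusted p = 0.0112) and HFD-338 (log2 fold change 0.53, adjusted p = 0.00223). In HFD-337 it was at 75.4, 55.3 and 58.04 CPM, and the call (log2 fold change 0.32, adjusted p = 0.0414) was lost in 8 of 12 alternatives. Its fall in HFD-Res, to 42.2, 34.5 and 36.6 CPM (log2 fold change -0.41, adjusted p = 0.0413), was lost in 5.

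The proteases differed by gene as well. Ctsd, the main aspartic protease of lysosomes, was at 276, 286 and 302 CPM in SD-NS, 315, 315 and 287 in HFD-NS and 256.5, 265 and 246 in HFD-Res. HFD-337 was below all of them at 183, 176 and 169 CPM (log2 fold change -0.80 with an SE of 0.108, adjusted p = 8.4e-06), while HFD-338 was at 416, 422 and 308.5. The HFD-338 libraries overlapped HFD-NS through replicate 19, and the call of a rise (log2 fold change 0.32, adjusted p = 0.0234) was lost without replicate 17 or 18, without HFD-NS replicate 16 and in a fit of these 2 groups alone. Ctsb, a cysteine protease, was at 516, 448 and 475 CPM in SD-NS against 643, 743 and 688 in HFD-NS (log2 fold change 0.53 with an SE of 0.113, adjusted p = 0.00195), and at 417, 353 and 409.9 in HFD-Res (log2 fold change -0.81 with an SE of 0.113, adjusted p = 5.51e-05). All HFD-Res libraries lay below all SD-NS libraries. Exons of Ctsb overlap those of Fdft1, a cholesterol synthesis gene, over 16.3% of their length. Fdft1 rose in HFD-NS against SD-NS, as Ctsb did (log2 fold change 0.64, adjusted p = 0.00185). In HFD-Res Fdft1 rose (log2 fold change 2.62), the direction opposite to Ctsb. The part of shared reads was not tested. Ctsl, another cysteine protease, rose in HFD-338 (log2 fold change 0.37, adjusted p = 0.0258), a call lost in 5 of 12 alternatives, and was lower in HFD-337 than in HFD-338 (log2 fold change -0.53, adjusted p = 0.00149). Tpp1, a peptidase that takes tripeptides off proteins, was lower in HFD-NS than in SD-NS (log2 fold change -0.31, adjusted p = 0.0158) and in HFD-Res than in HFD-NS (log2 fold change -0.31, adjusted p = 0.0306), calls that were lost in 4 and 6 of 12 alternatives.

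**Figure D3:**
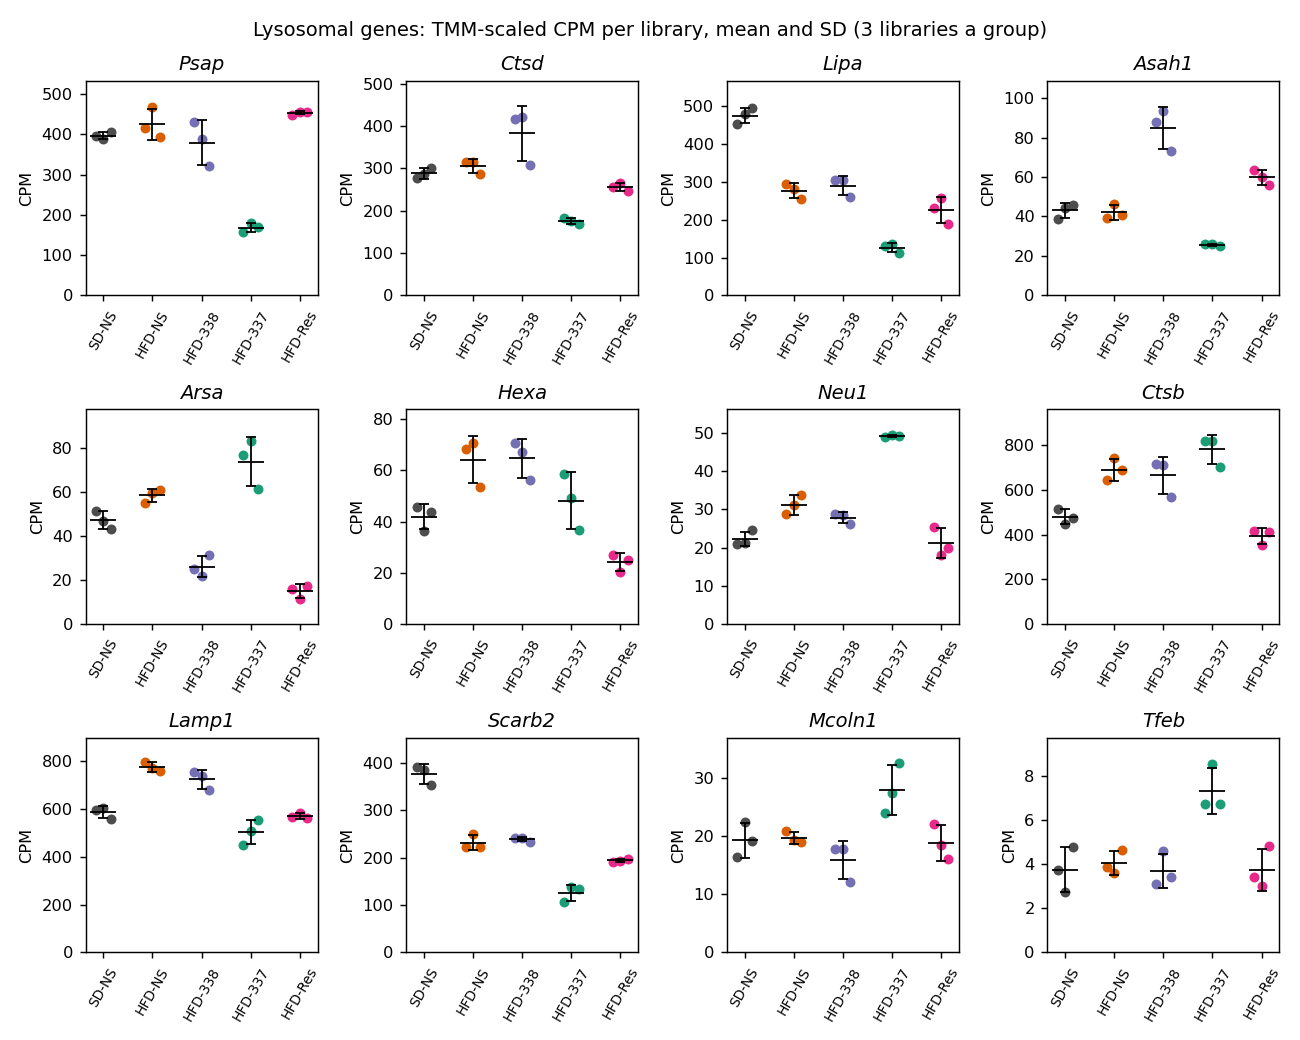
CPM in each library (points), with the mean (horizontal bar) and SD (whiskers) of 3 libraries per group, for 12 lysosomal genes, each on its own axis starting at 0. Psap, Ctsd, Lipa and Scarb2 are lowest in HFD-337, Arsa, Hexa and Ctsb are lowest in HFD-Res, Asah1 is highest in HFD-338, and Neu1, Mcoln1 and Tfeb are highest in HFD-337.

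The 3 luminal proteins that assist hydrolysis or carry its products were called in different groups. Psap, prosaposin, is cut into the saposins that present sphingolipids to their hydrolases (chromosome 10, 60113450 to 60138379 in mm39). It was at 397, 387 and 405 CPM in SD-NS, 414, 468 and 393 in HFD-NS, 429.6, 387 and 320.3 in HFD-338 and 448.5, 455 and 456 in HFD-Res. In HFD-337 it was at 157, 179 and 169 CPM, far below every other library, and this was the deepest fall of the 40 genes in that comparison (log2 fold change -1.34 with an SE of 0.107, adjusted p = 3.33e-08). It was not called in HFD-338 (log2 fold change -0.17, adjusted p = 0.231) or HFD-Res (log2 fold change 0.09, adjusted p = 0.642), and HFD-337 was lower than HFD-338 (log2 fold change -1.17, adjusted p = 8.84e-08). Npc2, which carries cholesterol out of the lumen, was at 58.1, 64.3 and 62.4 CPM in HFD-NS, 100.4, 88.8 and 78.3 in HFD-338 and 44.5, 46.7 and 35.9 in HFD-337. It rose in HFD-338 (log2 fold change 0.53 with an SE of 0.112, adjusted p = 0.00109) and fell in HFD-337 (log2 fold change -0.53 with an SE of 0.117, adjusted p = 0.00101). Neither group overlapped HFD-NS. Grn, progranulin, was at 322, 327 and 302 CPM in SD-NS against 147, 169.7 and 155 in HFD-NS (log2 fold change -1.01 with an SE of 0.11, adjusted p = 3.32e-06). Grn was not called in the treated groups, whose means ran from 136 to 173 CPM, at adjusted p-values of 0.482 in HFD-Res, 0.132 in HFD-337 and 0.49 in HFD-338.

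Among the 7 membrane proteins, Lamp1 and Lamp2 are the abundant glycoproteins that line the lysosomal membrane. Lamp1 had the highest TPM of all 40 genes in HFD-NS (677 ± 29.9 TPM, a level per length, against 2.77 ± 0.297 for Tfeb, the lowest). On that scale Gabarapl1, Sqstm1, Gabarap and Ctsl came next, between 395 and 581 TPM, and Gla and Cln3 stood just above Tfeb, at 3.36 ± 0.438 and 4.75 ± 0.199 TPM. Lamp1 was at 597, 604 and 557 CPM in SD-NS against 798.5, 772 and 757 in HFD-NS, a rise without overlap (log2 fold change 0.40 with an SE of 0.0945, adjusted p = 0.00372). In HFD-337 it was at 451, 508 and 553 CPM and in HFD-Res at 567, 585 and 563, so that both groups lay below HFD-NS (log2 fold change -0.62, adjusted p = 3.08e-05 and log2 fold change -0.44, adjusted p = 0.00335). HFD-338, at 755, 737 and 681 CPM, was not called (log2 fold change -0.10, adjusted p = 0.44). Lamp2 averaged 1031 ± 13.5 CPM in HFD-NS and was called by the edgeR test only between HFD-337 and HFD-338 (log2 fold change -0.40, adjusted p = 0.00216). Against HFD-NS it was called as a rise in HFD-338 with DESeq2 and recomputed TPM, and as a fall in HFD-337 with recomputed TPM. Scarb2, the receptor that brings beta-glucocerebrosidase to lysosomes, was at 391, 385 and 353 CPM in SD-NS against 223, 249.8 and 223 in HFD-NS (log2 fold change -0.70 with an SE of 0.0974, adjusted p = 4.1e-05). It fell again in HFD-337, to 106.5, 138 and 133 CPM (log2 fold change -0.88 with an SE of 0.0987, adjusted p = 1.17e-06), whereas HFD-338 was at 241, 242 and 234 and HFD-Res at 192, 194 and 197, both uncalled.

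Cd63, a tetraspanin of late endosomes and lysosomes, was low in most libraries, at 5.06, 4.08 and 3.38 CPM in SD-NS against 8.76, 11.8 and 5.69 in HFD-NS. HFD-338 had 44.8, 34.3 and 23.2 CPM, all above HFD-NS (log2 fold change 1.98 with an SE of 0.368, adjusted p = 0.00122). In HFD-337 replicate 23 was high and the other two near HFD-NS (22.1, 9.22 and 8.32 CPM), and the difference did not pass (log2 fold change 0.57, adjusted p = 0.269). Replicate 23 also had the highest sum of recruited macrophage markers in HFD-337 (330 CPM, against 98.1 and 152). The same held for bile duct (266 CPM, against 87.3 and 115.5), stellate (353, against 211.5 and 178) and Kupffer cell markers (201, against 101 and 146.5), among others. The part of any of those cells was not tested. HFD-337 was lower than HFD-338 (log2 fold change -1.40, adjusted p = 0.00581). Mcoln1, the calcium channel of the lysosomal membrane, was at 20.9, 19.2 and 18.97 CPM in HFD-NS and 24.02, 27.3 and 32.5 in HFD-337 (log2 fold change 0.50 with an SE of 0.159, adjusted p = 0.0144). The groups did not overlap, but the call was lost without HFD-337 replicate 27 and with recomputed TPM. HFD-338, at 17.8, 17.8 and 12.04 CPM, lay below HFD-337 (log2 fold change 0.81, adjusted p = 0.000356). Npc1, the partner of Npc2 that exports cholesterol, was at 141, 139 and 154 CPM in SD-NS, 101, 129 and 144.5 in HFD-NS, 123, 119.9 and 106 in HFD-337, 111, 111 and 124 in HFD-338 and 164, 129.5 and 117.5 in HFD-Res. These ranges overlapped those of HFD-NS in every group, and none of the 5 comparisons passed (adjusted p 0.236, 0.532, 0.518, 0.57 and 0.951). Cln3, a membrane protein that is lost in a childhood lysosomal storage disease, was not called in any comparison either.

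The proton pump subunits did not move as 1 unit. Atp6v1a, the catalytic subunit, was at 78.00, 75.7 and 59.8 CPM in HFD-NS, 43.7, 43.6 and 41.4 in HFD-337, 102, 99.5 and 86.9 in HFD-338 and 48.2, 56.4 and 50.9 in HFD-Res. It fell in HFD-337 (log2 fold change -0.73 with an SE of 0.109, adjusted p = 2.5e-05) and HFD-Res (log2 fold change -0.46 with an SE of 0.108, adjusted p = 0.00699) and rose in HFD-338 (log2 fold change 0.43 with an SE of 0.104, adjusted p = 0.0031), each without overlap. Atp6v0d2, an isoform of the membrane sector best known from osteoclasts and macrophages, was low in SD-NS, at 0.266, 0.583 and 2.53 CPM. HFD-NS had 3.97, 13.9 and 11.4 CPM, a rise without overlap but with a wide error (log2 fold change 3.42 with an SE of 0.748, adjusted p = 0.00485). Of 14 markers of recruited macrophages, 8 rose and 1 fell in this comparison, beside 12% and 16.1% of all genes. Their sum was 93.7 to 107 CPM in SD-NS against 112 to 164 in HFD-NS. Their part in the rise was not tested. The ranges of Atp6v0d2 in the treated groups overlapped HFD-NS. In HFD-338 these markers summed to 799 to 861 CPM, most of it from Spp1, which is also a bile duct marker. Atp6v0d2 averaged 5.97 CPM there against 9.75 in HFD-NS (log2 fold change -0.71, adjusted p = 0.305). The part of macrophages in its level was not tested. Atp6v0d1, the widely expressed isoform, was lower in HFD-338 (log2 fold change -0.27, adjusted p = 0.0225), a call lost in 4 of 12 alternatives, and higher in HFD-337 than in HFD-338 (log2 fold change 0.44, adjusted p = 0.000449). Atp6v1h, a regulatory subunit, averaged 70.7 ± 1.16 CPM in HFD-NS and was called in no comparison, apart from HFD-337 with recomputed TPM.

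In HFD-337, 11 of the 32 lysosomal genes fell and 4 rose, beside 22.8% and 24.4% of all genes tested. Tfeb was among those that rose. Its level was 3.85, 3.60 and 4.64 CPM in HFD-NS and 6.70, 8.53 and 6.70 in HFD-337. The other groups stood at 3.73, 2.72 and 4.78 CPM (SD-NS), 3.08, 4.58 and 3.40 (HFD-338) and 3.43, 2.99 and 4.79 (HFD-Res), and every HFD-337 library exceeded every library of the other 4 groups. The rise passed against HFD-NS (log2 fold change 0.87 with an SE of 0.24, adjusted p = 0.00603) and against HFD-338 (log2 fold change 1.00 with an SE of 0.245, adjusted p = 0.00183), and held over the 12 alternatives of each comparison, at adjusted p-values of 0.00317 to 0.0435 and of 0.000734 to 0.0225. The activity of TFEB depends on where the protein lies in the cell, which RNA does not measure.

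Promoter sequences were read from the RefSeq table of build GRCm38.p6, which spans 250 bases before to 50 after each start and matched 34 of the 40 genes with 38 promoters. No sequence was found there for Ctsb, Asah1, Npc1, Atp6v0d2, Atp6v1h and Becn1. The full palindrome known as the CLEAR element, GTCACGTGAC, was present in 1 of the 38 promoters (2.63%), in 0.326% of all 32851 promoters and in 0.653% of the 13323 promoters of tested genes. Its core TCACGTGA was present in 6 (15.8%, against 0.974% and 1.82%), and the E-box CACGTG that lies inside both in 13 (34.2%, against 7.15% and 9.95%). These motifs read the same on both strands. The 6 genes with the core were Atp6v0d1, Atp6v1a, Cln3, Ctsd, Gla and Mcoln1, and Atg5 and Atg7 were the only autophagy factors with an E-box. Cln3 has another promoter window (chr7:126585768-126586067, minus), which holds no E-box and is not printed. The promoters of 4 genes with the core and of Lamp1, which has 4 E-boxes, are printed because these genes moved in different directions in HFD-337: Ctsd, Atp6v1a and Lamp1 fell, Mcoln1 rose and Cln3 was not called. They are written 5′ to 3′ on the gene's strand, and capitals mark E-boxes, extended to the core or the full element where present. The windows are chr7:142387778-142388077 (minus) for Ctsd, chr16:44139210-44139509 (minus) for Atp6v1a, chr8:13158911-13159210 (plus) for Lamp1, chr8:3500269-3500568 (plus) for Mcoln1 and chr7:126583187-126583486 (minus) for Cln3.
Ctsd: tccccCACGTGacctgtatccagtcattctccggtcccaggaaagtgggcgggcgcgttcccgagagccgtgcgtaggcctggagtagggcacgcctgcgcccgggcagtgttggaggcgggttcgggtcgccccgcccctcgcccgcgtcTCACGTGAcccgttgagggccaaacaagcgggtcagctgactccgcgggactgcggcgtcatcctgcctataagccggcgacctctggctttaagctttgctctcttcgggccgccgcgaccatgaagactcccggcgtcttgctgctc
Atp6v1a: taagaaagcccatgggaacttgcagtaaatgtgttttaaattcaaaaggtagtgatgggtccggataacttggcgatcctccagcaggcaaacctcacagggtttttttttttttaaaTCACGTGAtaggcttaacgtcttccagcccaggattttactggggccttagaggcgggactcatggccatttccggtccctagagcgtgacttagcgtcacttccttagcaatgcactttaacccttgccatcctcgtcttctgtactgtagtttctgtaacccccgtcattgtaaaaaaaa
Lamp1: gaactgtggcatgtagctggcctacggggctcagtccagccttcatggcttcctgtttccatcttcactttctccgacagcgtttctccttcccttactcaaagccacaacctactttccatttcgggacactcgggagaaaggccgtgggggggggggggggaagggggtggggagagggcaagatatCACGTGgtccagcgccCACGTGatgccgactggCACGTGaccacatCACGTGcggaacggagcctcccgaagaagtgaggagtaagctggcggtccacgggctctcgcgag
Mcoln1: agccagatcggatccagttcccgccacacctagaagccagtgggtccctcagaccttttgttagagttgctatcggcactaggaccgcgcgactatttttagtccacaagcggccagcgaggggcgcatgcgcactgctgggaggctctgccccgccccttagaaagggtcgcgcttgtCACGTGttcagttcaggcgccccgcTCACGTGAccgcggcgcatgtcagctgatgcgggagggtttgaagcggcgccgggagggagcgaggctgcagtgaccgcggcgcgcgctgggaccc
Cln3: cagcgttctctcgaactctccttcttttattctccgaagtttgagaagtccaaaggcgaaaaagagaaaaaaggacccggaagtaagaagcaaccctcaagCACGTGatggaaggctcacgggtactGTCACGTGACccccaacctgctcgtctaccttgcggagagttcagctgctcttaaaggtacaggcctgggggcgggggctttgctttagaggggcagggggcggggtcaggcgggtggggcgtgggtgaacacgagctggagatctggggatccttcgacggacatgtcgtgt
Counted from the start, the first base of the E-boxes lay at -245 and -98 in Ctsd, at -131 in Atp6v1a, at -61, -45, -28 and -15 in Lamp1, at -71 and -45 in Mcoln1 and at -149 and -121 in Cln3. Of the 13 genes with an E-box, 2 rose and 1 fell in HFD-NS against SD-NS, beside 6 and 4 of the 21 matched genes without one (12% and 16.1% of all genes). In HFD-337, 1 rose and 4 fell with an E-box, and 3 rose and 9 fell without one (24.4% and 22.8% of all genes). In HFD-338, 4 rose and 5 fell with an E-box, and 4 rose and 2 fell without one (18.9% and 17.9%). In HFD-Res, 0 rose and 5 fell with an E-box, and 0 rose and 8 fell without one (6.22% and 6.74%). Between HFD-337 and HFD-338, 5 were higher and 7 lower with an E-box, and 2 higher and 10 lower without one (28.8% and 29.6%). A match is a run of letters in these windows only, and binding was not measured.

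The 8 autophagy factors cover the start of the process, membrane conjugation and cargo. Ulk1, the kinase that starts autophagosome formation, was at 35.8, 42.97 and 44.7 CPM in SD-NS, 27.8, 37.4 and 39.9 in HFD-NS, 35.8, 28.7 and 34.7 in HFD-337, 34.3, 30.6 and 35.99 in HFD-338 and 44.8, 40.5 and 52.6 in HFD-Res. All HFD-Res libraries lay above HFD-NS, but the difference did not pass (log2 fold change 0.40 with an SE of 0.14, adjusted p = 0.0696), and it was called only without HFD-NS replicate 16. Becn1, part of the lipid kinase complex that nucleates the membrane, fell in HFD-338 from 74.05 ± 1.12 to 61.7 ± 4.45 CPM (log2 fold change -0.26, adjusted p = 0.0303), a call lost in 7 of 12 alternatives. Becn1 was higher in HFD-337 than in HFD-338 (log2 fold change 0.39, adjusted p = 0.00138), a call lost only with recomputed TPM. The exons of Becn1 overlap those of Cntd1 over 18.4% of their length. Cntd1 was not called in HFD-338 against HFD-NS (log2 fold change -0.10). It was higher in HFD-337 than in HFD-338, at means of 55.56 and 27.58 CPM (adjusted p = 6.6e-06), and the part of shared reads was not tested.

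Atg7 and Atg5 belong to the conjugation machinery that links LC3 and GABARAP proteins to lipid. Atg7 was at 31.7, 30.3 and 23.6 CPM in SD-NS against 54.1, 45.8 and 52.9 in HFD-NS (log2 fold change 0.82 with an SE of 0.118, adjusted p = 5.78e-05), with no overlap. HFD-338 and HFD-Res were lower than the same HFD-NS libraries, at 31.01, 29.7 and 33.2 and 38.5, 31.1 and 33.7 CPM (log2 fold change -0.70, adjusted p = 0.000105 and log2 fold change -0.57, adjusted p = 0.0024). HFD-337 was between, at 40.2, 43.9 and 45.9 CPM, uncalled against HFD-NS (log2 fold change -0.23, adjusted p = 0.0988) except with recomputed TPM, and above HFD-338 (log2 fold change 0.47, adjusted p = 0.00209). Atg5 was at 78.3, 68.4 and 75.2 CPM in HFD-NS and 37.2, 57.2 and 47.7 in HFD-337, a fall without overlap (log2 fold change -0.63 with an SE of 0.128, adjusted p = 0.000512). In HFD-338 it was at 55.4, 55.8 and 65.8 CPM, and the call (log2 fold change -0.33, adjusted p = 0.0476) was lost in 7 of 12 alternatives.

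Gabarapl1, one of the proteins conjugated to autophagosome membranes, fell in all 3 treated groups. It was at 331.5, 387.5 and 368 CPM in SD-NS against 526, 542 and 517 in HFD-NS, where it rose (log2 fold change 0.55 with an SE of 0.114, adjusted p = 0.00165). It stood at 282, 364 and 290.0 CPM in HFD-337, 278, 252 and 302 in HFD-338 and 329, 284 and 358 in HFD-Res, and none of these 9 libraries reached any HFD-NS library. The falls were in the same order -0.76, -0.93 and -0.71 on the log2 scale (adjusted p = 2.85e-05, 7.4e-06 and 0.000281). HFD-337 and HFD-338 were not separated from each other (log2 fold change 0.17 with an SE of 0.114, adjusted p = 0.207). Map1lc3b, the gene of LC3B, was at 107, 107.5 and 103.5 CPM in SD-NS, 97.97, 97.96 and 104 in HFD-NS, 72.8, 85.2 and 56.8 in HFD-337, 82.1, 72.5 and 78.00 in HFD-338 and 90.99, 66.7 and 88.5 in HFD-Res. All 9 treated libraries were below HFD-NS. The fall passed in HFD-337 (log2 fold change -0.47 with an SE of 0.125, adjusted p = 0.00417) and also in the HFD-338 libraries (log2 fold change -0.37, adjusted p = 0.0253), the latter lost without HFD-NS replicate 16, without HFD-338 replicate 18 and with recomputed TPM, and it did not pass in HFD-Res (log2 fold change -0.28, adjusted p = 0.157). Gabarap, the related family member, averaged from 205 to 231 CPM over the 5 groups and was not called in any comparison. Sqstm1, the cargo receptor that carries ubiquitinated proteins into autophagosomes, was at 509.9, 567 and 527 CPM in SD-NS, 453, 509 and 380.2 in HFD-NS, 421, 395.5 and 386 in HFD-337, 454, 473 and 396 in HFD-338 and 320.5, 298.5 and 338 in HFD-Res. The HFD-Res libraries were the lowest of the series and did not overlap HFD-NS (log2 fold change -0.49 with an SE of 0.109, adjusted p = 0.0046), while neither HFD-337 nor HFD-338 passed (log2 fold change -0.16, adjusted p = 0.242 and log2 fold change -0.02, adjusted p = 0.905). RNA levels of these factors do not measure the flow of material through autophagy.

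**Figure D4:**
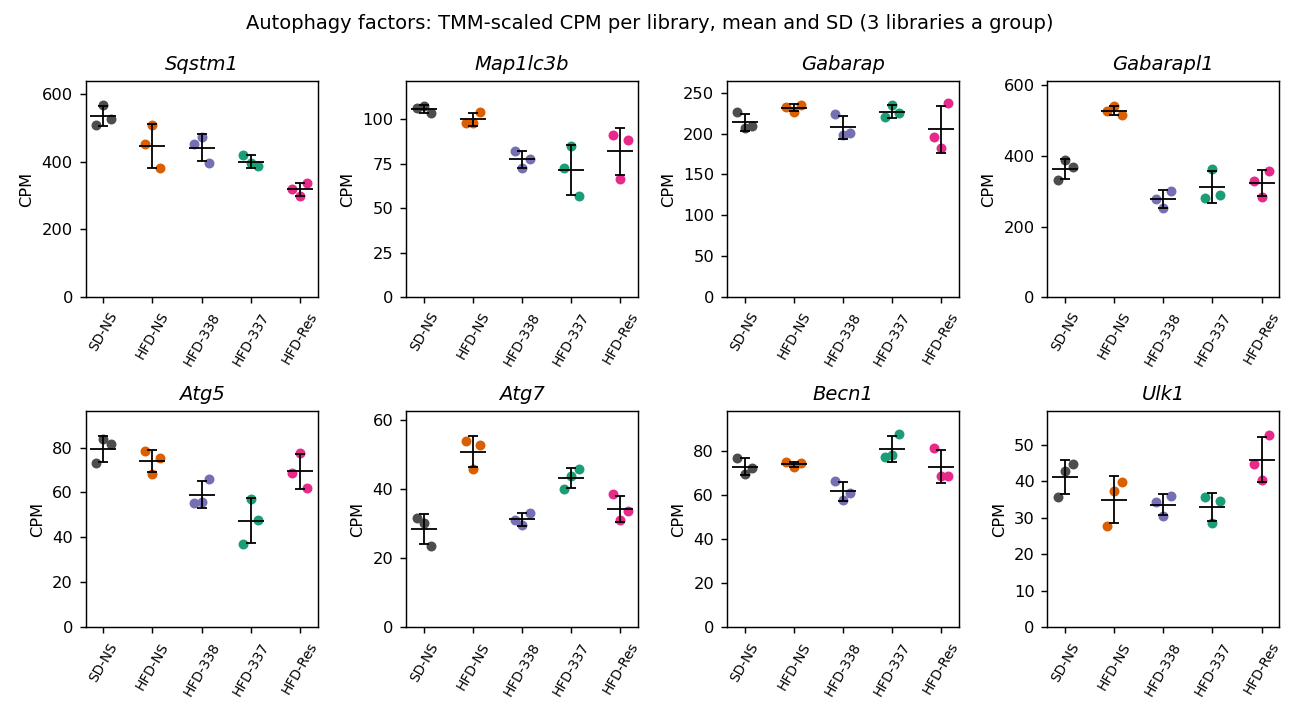
CPM in each library (points), with the mean (horizontal bar) and SD (whiskers) of 3 libraries per group, for the 8 autophagy factors, each on its own axis starting at 0. Gabarapl1 and Atg7 are higher in HFD-NS than in SD-NS, and all Gabarapl1 libraries of HFD-338, HFD-337 and HFD-Res lie below those of HFD-NS.

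**Figure D5:**
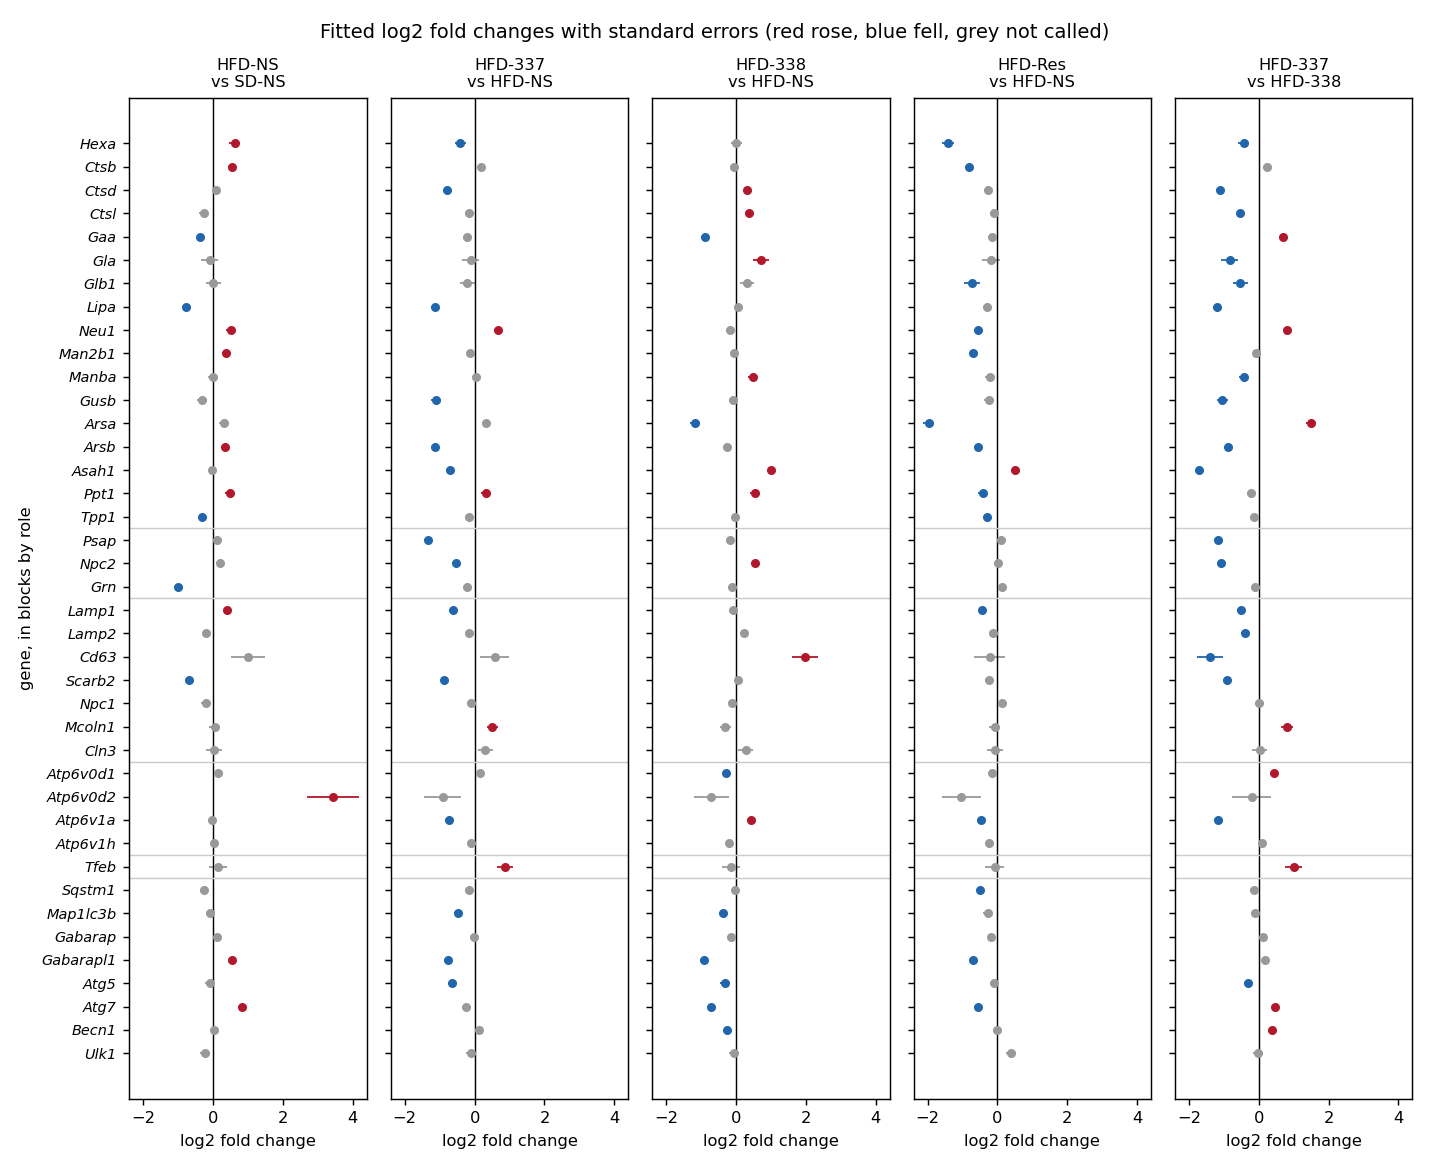
Fitted log2 fold change (horizontal axis) with its standard error (line) for the 40 genes (rows) in the 5 comparisons (panels), red for genes that rose, blue for genes that fell and grey for genes not called. Red and blue lie on both sides of 0 in HFD-337 and HFD-338, whereas in HFD-Res only Asah1 is red.

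Of 115 tested genes of the same systems outside the 40, 15 rose and 13 fell in HFD-NS against SD-NS (13% and 11.3%, beside 12% and 16.1% of all genes). Against HFD-NS, 20 rose and 44 fell in HFD-337 (17.4% and 38.3%, beside 24.4% and 22.8%). In HFD-338, 18 rose and 27 fell (15.7% and 23.5%, beside 18.9% and 17.9%). In HFD-Res, 6 rose and 12 fell (5.22% and 10.4%, beside 6.22% and 6.74%). Between HFD-337 and HFD-338, 31 were higher and 37 lower (27% and 32.2%, beside 28.8% and 29.6%), so the shares of rises lay near or below those of all genes.

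Of all genes, 24.4% rose and 22.8% fell in HFD-337, and 18.9% rose and 17.9% fell in HFD-338. The shares were 6.22% and 6.74% in HFD-Res, and 12% and 16.1% in HFD-NS against SD-NS. Of 32 other hydrolases, 7 (21.9%) rose and 8 (25%) fell in HFD-337. In HFD-338, 8 (25%) rose and 6 (18.8%) fell, and in HFD-Res 1 (3.12%) rose and 6 (18.8%) fell. Ctss, a cathepsin of phagocytes, averaged 53.2 ± 12.5 CPM in HFD-NS and 162.5 ± 30.6 in HFD-338 (log2 fold change 1.61, adjusted p = 0.00414), and Ctsk, a collagen-degrading cathepsin, rose there too (log2 fold change 2.30, adjusted p = 0.000336). Ctsa, which protects Neu1 in a complex, fell in HFD-Res (log2 fold change -0.77, adjusted p = 0.00279). Of 14 other proton pump subunits, 3 rose and 6 fell in HFD-337, with Tcirg1 up (log2 fold change 1.37, adjusted p = 2.23e-07) and Atp6v0c down (log2 fold change -1.10, adjusted p = 0.000111). In HFD-338, 4 of these rose and 0 fell, and in HFD-Res 1 rose and 1 fell. Of 30 other autophagy factors, 4 (13.3%) rose and 14 (46.7%) fell in HFD-337, and 1 (3.33%) rose and 13 (43.3%) fell in HFD-338. The falls included Atg12 in HFD-337 (log2 fold change -1.02, adjusted p = 4.68e-07) and Pik3r4, a subunit of the lipid kinase complex, in HFD-338 (log2 fold change -0.75, adjusted p = 0.000156). In HFD-Res 2 (6.67%) rose and 1 (3.33%) fell, shares near or below those of all genes. Of 10 genes of enzyme sorting, 3 rose and 4 fell in HFD-337, 1 rose and 1 fell in HFD-338, and 1 rose and 2 fell in HFD-Res. Of 19 genes of nutrient sensing at the lysosome, 3 (15.8%) rose and 6 (31.6%) fell in HFD-337, with Lamtor4, part of the scaffold for the mTORC1 kinase, up (log2 fold change 1.03, adjusted p = 6.64e-07). In HFD-338, 3 (15.8%) rose and 3 (15.8%) fell, and in HFD-Res 1 (5.26%) rose and 1 (5.26%) fell. Of 10 other cargo receptors, 0 rose and 6 fell in HFD-337 and 1 rose and 4 fell in HFD-338, with Bnip3, a receptor for mitochondria, falling in both (log2 fold change -0.72, adjusted p = 7e-04 and log2 fold change -0.79, adjusted p = 0.000452). Of these receptors 0 rose and 1 fell in HFD-Res, and 2 rose and 4 fell in HFD-NS against SD-NS. In that comparison 7 of the other hydrolases rose and 2 fell, 0 of the pump subunits rose and 2 fell, 3 of the other autophagy factors rose and 3 fell, 0 of the sorting genes rose and 2 fell, and 3 of the nutrient sensing genes rose and 0 fell.

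Markers of other liver cell types moved with some of these results. Their counts in HFD-337 stand beside 24.4% of all genes tested that rose and 22.8% that fell. In HFD-337, 6 of 15 Kupffer cell markers fell and 0 rose, and their summed level was 101 to 201 CPM against 284 to 346 in HFD-NS. All 10 sinusoidal endothelial markers fell there (99.5 to 127 CPM in sum, against 300 to 369), as did 6 of 10 stellate cell markers (178 to 353, against 430 to 528). Of 10 hepatocyte markers 5 fell and 2 rose in HFD-337 (94090 to 141000 CPM in sum, against 116900 to 130900). Of 8 bile duct markers 4 rose and 0 fell (87.3 to 266, against 61.3 to 75.6), and of 14 markers of recruited macrophages (monocyte-derived and lipid-associated) 2 rose and 2 fell.

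Of all genes tested, 18.9% rose and 17.9% fell in HFD-338. There 11 of the 14 recruited macrophage markers rose and 0 fell (799 to 861 CPM in sum, against 112 to 164 in HFD-NS), and all 8 tested bile duct markers rose (609 to 767 CPM). Spp1, which is on both lists, made up 577, 519 and 663 CPM of those sums. Gpnmb, a lysosomal protein of lipid-loaded macrophages, rose there as well, from 4.51 ± 2.05 to 25.1 ± 4.63 CPM (log2 fold change 2.49, adjusted p = 7.04e-06). Of 10 markers of stellate cells 4 rose and 1 fell (819 to 1384 CPM in sum), whereas 8 of 10 sinusoidal markers fell (129 to 248). The Kupffer sum was uneven, 477, 708 and 268 CPM in replicates 17, 18 and 19, with 5 of 15 markers up and 1 down, and 3 of 10 hepatocyte markers fell. In HFD-337 against HFD-338, 11 of 15 Kupffer, 12 of 14 recruited macrophage, 7 of 10 sinusoidal, 8 of 10 stellate and 7 of 8 bile duct markers were lower, and 1 stellate and 1 bile duct marker were higher. Of all genes tested, 29.6% were lower and 28.8% higher in that comparison.

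In HFD-Res 4 of 10 hepatocyte markers fell and 1 rose (80520 to 90090 CPM in sum), where 6.74% of all genes fell and 6.22% rose. Of the recruited macrophage markers 2 fell and 0 rose, 12 of 14 had a fold change below 0, and their sum was 120 to 133 CPM. In the same comparison 2 bile duct markers rose and 1 fell (87.6 to 107 CPM), and 0 Kupffer, 0 sinusoidal and 0 stellate markers were called, with a Kupffer sum of 290 to 385 CPM. No Kupffer, macrophage or sinusoidal marker was at 0 in all libraries of a group. The part of these cell types in the falls in HFD-337 and HFD-Res, and in the rises of Cd63, Asah1, Npc2, Ctss and Ctsk in HFD-338, was not tested.

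Genomic span also moved with the calls in HFD-337. Of all tested genes under 10 kb, 40% rose and 9.88% fell there, and of those of 200 kb or more, 6.31% rose and 46.4% fell. Among the 9 members under 10 kb, 1 rose and 2 fell, and their median log2 fold change was -0.16 where that of all genes of this span was 0.34. Members of 10 to 20 kb numbered 11, of which 1 rose and 4 fell, beside 27.4% and 17% of all genes of that span. For the 10 members of 20 to 50 kb, 1 rose and 4 fell, beside 18.6% and 25.6%. Among the 8 members of 50 to 100 kb, 1 rose and 3 fell, beside 14.4% and 34.2% of all genes of that span. Of the members that fell, Arsb, Atg5, Scarb2 and Atp6v1a span 171, 95.96, 64.35 and 53.86 kb. Lipa, Asah1, Hexa and Psap span 35.2, 34.05, 25.57 and 24.9 kb, and Npc2, Lamp1, Gusb and Ctsd 18.55, 16.18, 14.03 and 11.9 kb. Gabarapl1 and Map1lc3b span 9.14 and 8.32 kb. The part of span in the members' falls was not tested.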

How the data were processed

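Per the labels' protocols, RNA came from a TRIzol-chloroform extraction followed by polyA selection. Build mm39 and featureCounts 2.0.1 are named, per the submitters' processing notes, with STAR 2.7.10b, Bowtie 1.3.1 and Trim Galore 0.6.10, in no stated order. The authors' deposited counts are, per the file headers, unstranded exon reads summed per gene, and a read over several genes counted for each, so overlapping genes share reads. Deposited TPM values were not used. TPM was recomputed from counts and exon lengths.

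Members were found by exact symbol. Counts of 15 libraries in 5 groups, assigned by their labels, were filtered with filterByExpr, scaled by TMM and fitted together with the robust quasi-likelihood test of edgeR 4.0.16 in R 4.3.3. The biological coefficient of variation was 0.134 in common. For each of 5 comparisons, p-values were adjusted over 13189 genes by Benjamini-Hochberg, and genes were called under 0.05. Standard errors were derived from the fold change and its F statistic. No pair of libraries held identical counts. Depth, 3873903 to 9797743 counts per library, limits the precision of low genes such as Atp6v0d2 and Tfeb. The procedure was tested on simulated data.

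Every-library values are given for up to 4 called members per direction and comparison that do not overlap, by fold, and for 8 members whatever their result. Other pathway genes named are among the 3 largest called per list and direction, and markers are given as sums, counts and up to 2 genes. Members and lists were chosen with earlier results of these data known. Results were recomputed with DESeq2 1.42.0, with RLE size factors, without the low-count filter, with limma-voom (limma 3.58.1) and quality weights, in a fit of the 2 groups alone, by limma on log2 of recomputed TPM plus 1 (TPM of at least 1 in 3 libraries), and leaving out each library.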

Additional observations from a re-analysis of the deposited data

How the results depend on the processing

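No call turned to the other direction under any alternative run. Lysosomal falls in HFD-NS against SD-NS numbered 5, but 3 with no low-count filter and 3 with recomputed TPM (3 to 5 when 1 library was left out). Autophagy falls in HFD-338 numbered 5, but 3 with RLE size factors, 3 with DESeq2 and 2 with recomputed TPM (2 to 5). In HFD-337 against HFD-NS recomputed TPM gave 2 lysosomal rises and 18 falls in place of 4 and 11. Between HFD-337 and HFD-338, the 1 lower autophagy factor became 0 with no filter, limma-voom or a fit of the 2 groups alone and 3 with TPM (0 to 1), and the 2 higher ones became 0 with TPM. Leaving out 1 library gave 0 to 1 autophagy falls in HFD-NS against SD-NS (Sqstm1, without HFD-NS replicate 13), 0 to 1 autophagy rises in HFD-Res (Ulk1, without HFD-NS replicate 16), and 1134 to 1467 called genes in HFD-Res against 1709 with all, the fewest without HFD-Res replicate 34. With TPM, 1589 rises and 2122 falls over all genes became 1984 and 1098 in HFD-NS against SD-NS (1722 and 1511 with no filter), 3214 and 3006 became 2220 and 3593 in HFD-337, 2490 and 2357 became 2782 and 1359 in HFD-338, and 3794 and 3907 became 2187 and 5284 between those groups. With TPM the median log2 fold change of all genes moved to 0.12 in HFD-338 and -0.23 between HFD-337 and HFD-338. The cause was not tested. No paired analysis was possible because the groups share no replicate numbers.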

Other observations

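Sort1, the sortilin receptor that sorts proteins toward lysosomes, was lower in HFD-NS than in SD-NS. The SD-NS libraries had 11.3, 14.2 and 7.31 CPM, and the HFD-NS libraries 5.49, 4.72 and 4.53 (log2 fold change -1.19 with an SE of 0.291, adjusted p = 0.00651). It was at 20.1, 8.88 and 12.8 CPM in HFD-337, 17.4, 19.3 and 14.1 in HFD-338 and 20.3, 28.1 and 20.8 in HFD-Res, and no library of these groups overlapped HFD-NS. The rises were called in all of them (log2 fold change 1.46, adjusted p = 0.000486, log2 fold change 1.79, adjusted p = 8.86e-05 and log2 fold change 2.22, adjusted p = 3.1e-05), with the same HFD-NS libraries in each comparison. Rragd, a GTPase through which lysosomes report amino acids and a known target of TFEB relatives, rose in HFD-338. It was at 3.62, 3.85 and 2.42 CPM in HFD-NS, 28.9, 31.4 and 27.2 in HFD-338 and 6.30, 1.84 and 2.23 in HFD-337. The HFD-338 libraries stood apart from both (log2 fold change 3.15 with an SE of 0.266, adjusted p = 1.3e-07 against HFD-NS), and HFD-337 was lower than HFD-338 (log2 fold change -3.15, adjusted p = 8.84e-08). Tfeb was higher in HFD-337 than in HFD-338 (log2 fold change 1.00, adjusted p = 0.00183), and a link between these genes was not tested.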
